A study of Mus musculus with 19 samples.

Results

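The immediate early and heat shock genes Fos, Fosb, Jun, Junb, Egr1, Atf3, Ier2, Zfp36, Hspa1a and Hspa1b were followed through the injury course of a mouse model of heterotopic ossification (HO), bone that forms in soft tissue after trauma. These 10 genes, of 27998 in the count tables, were chosen by name as genes known to be induced within minutes of a stimulus. The choice was made with earlier results of these data known. All 10 were measured in every library, and all passed the filter on low counts in every comparison. Their level was read in each lineage of each of 19 single cell libraries, so that a shift shared by the lineages of a library could be set beside a change that differed between lineages.

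Immediate early genes are transcribed without new protein synthesis when a cell meets a growth factor, a cytokine, mechanical force or damage, and their transcripts are short-lived. Fos, Fosb, Jun, Junb and Atf3 encode subunits of the AP-1 family of dimeric transcription factors. Egr1 encodes a zinc finger transcription factor induced through serum response factor, Ier2 a small nuclear protein, and Zfp36 the protein tristetraprolin, which binds and destabilises cytokine mRNAs. Hspa1a and Hspa1b encode the inducible chaperone HSP70 and are switched on by heat shock factor. They are also known to be induced in cells while these are released from tissue by enzyme digestion.

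The mice had a dorsal burn and a cut Achilles tendon (burn/tenotomy), and cells were isolated from the injury site with collagenase and dispase. The groups were day 0 (4 libraries, 3561 cells), day 3 (3 libraries, 5795 cells), day 7 (4 libraries, 13414 cells) and day 21 (4 libraries, 5345 cells), and a CD47_treated group (4 libraries, 11426 cells) of burn/tenotomy mice given the CD47-activating peptide p7N3. The study's methods describe male C57BL/6J mice aged 6 to 10 weeks. Its text places day 0 before the injury, whereas the labels list the burn for all libraries. The labels name C57 and LysmCre/Tgfb1fx/fx mice, the latter lacking Tgfb1 in cells that express lysozyme, over all libraries alike, so that no library can be given a genotype from them. The study set its p7N3 mice against mice given PBS, but no label names a vehicle for day 7. The harvest day of p7N3 replicate 4 is missing from the labels, so that this library was placed with the other p7N3 libraries by its group name. The study gives the libraries as repeats made to measure variation between mice, while the labels name no animal.

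Depth and the mitochondrial share differed between day 0 and the rest. A library held 3019467 to 5383855 UMIs in its cells at day 0 and 11064153 to 39870492 at the other times. The median cell had 3414 to 4693 UMIs at day 0 and 6534 to 12406 elsewhere, and the mitochondrial share was 3.31 to 4.13% at day 0 and 2.44 to 3.13% elsewhere. These differences run with the comparison to day 0, and their part in it was not tested. No pair of libraries shared more than 22 cell barcodes, which was at most 0.871% of a library.

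Cells were assigned to 13 classes by marker genes, each written as "-like" since the names were rebuilt from clusters. A further 3767 cells were left unnamed. The lineages tested were monocyte/macrophage-like (392 cells at day 0 and 3856 at day 3), stromal-like (1146 and 816) and endothelial-like (1031 and 95), which were present in all 19 libraries. Pericyte/smooth muscle-like cells were also present in all 19 libraries but were not tested. A level is the UMIs of a gene per 1000000 UMIs of that class in a library (CPM). The 760 levels in those 3 lineages and the pericyte/smooth muscle-like cells rested on 19 to 23758 UMIs each. A lower level can come from fewer cells with the transcript, from less of it per cell or from more of the other RNA per cell. In stromal-like cells of replicate 1, for example, Fos had 4125 of 2116504 UMIs in 344 cells at day 0. At day 3 it had 7133 of 9392033 UMIs in 252 cells, a lower level with more Fos UMIs per cell. The part of UMIs per cell in the changes of level was not tested, and shares of cells are given further on.

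The 250 bases before the start of 4 members are shown because they match short elements through which such genes are known to be induced. Whether the matches act in these cells was not tested. They are RefSeq sequences of GRCm38.p6, written 5′ to 3′ on the strand of the gene, and capitals mark the matches named after them.
Fos (chr12:85473640-85473889, plus strand): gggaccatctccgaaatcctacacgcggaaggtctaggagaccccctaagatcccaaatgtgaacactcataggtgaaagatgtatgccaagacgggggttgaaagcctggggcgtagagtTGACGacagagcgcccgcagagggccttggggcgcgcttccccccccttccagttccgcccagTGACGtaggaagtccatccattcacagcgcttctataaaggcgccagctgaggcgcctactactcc
Jun (chr4:95052223-95052472, minus strand): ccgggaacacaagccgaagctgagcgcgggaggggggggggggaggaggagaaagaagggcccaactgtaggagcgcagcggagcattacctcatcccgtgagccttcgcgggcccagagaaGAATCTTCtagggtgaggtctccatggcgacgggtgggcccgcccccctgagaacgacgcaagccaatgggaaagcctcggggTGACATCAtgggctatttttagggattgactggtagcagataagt
Zfp36 (chr7:28379229-28379478, minus strand): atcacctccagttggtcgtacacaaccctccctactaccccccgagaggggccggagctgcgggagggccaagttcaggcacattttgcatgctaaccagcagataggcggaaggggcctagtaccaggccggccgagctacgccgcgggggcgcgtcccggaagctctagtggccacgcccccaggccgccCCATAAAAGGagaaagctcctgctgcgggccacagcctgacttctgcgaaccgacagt
Hspa1a (chr17:34972157-34972406, minus strand): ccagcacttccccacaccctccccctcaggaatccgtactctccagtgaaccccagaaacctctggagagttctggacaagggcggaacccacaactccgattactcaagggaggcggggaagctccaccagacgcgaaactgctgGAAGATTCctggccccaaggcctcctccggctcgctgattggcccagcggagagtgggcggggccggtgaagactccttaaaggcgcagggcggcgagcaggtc

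In Fos the capitals mark TGACG, the core of a cyclic AMP response element, at 129 and 66 bases before the start. In Jun they mark GAANNTTC and TGANNTCA, the latter a site for ATF and Jun dimers, starting 128 and 45 bases before the start. In Zfp36 they mark a CArG box, which serum response factor binds, and in Hspa1a GAANNTTC, the inverted pair of heat shock factor units. All motifs were searched on both strands in the 8 members with a promoter sequence. TGACG was found in 4 of 8 (Fos, Fosb, Junb and Atf3) and in 17.8% of 32851 promoters of the same length. GAANNTTC or TTCNNGAA was found in 3 of 8 (Jun, Hspa1a and Hspa1b) and in 12.8% of all, TGANNTCA in 1 of 8 and 11.9%, TATAAA in 1 of 8 (Fos) and 12.4%, and the CArG box in 1 of 8 and 1.47%. The classical AP-1 site TGANTCA was in none of the 8 and in 6.75% of all. A run of 3 heat shock factor units was likewise in none of the 8, Hspa1a and Hspa1b among them, and in 0.466% of all. The windows of Hspa1a and Hspa1b differed at 3 of 250 bases.

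On the GRCm38 annotation (GENCODE M21), Fos lies at chr12:85473890-85477273 and Jun at chr4:95049034-95052222. Hspa1a (chr17:34969190-34972156) and Hspa1b (chr17:34956436-34959238) are neighbours and nearly copies of each other. Their coding sequences were identical at 99.4% of aligned bases, and the stretches after the stop codon at 46.6%. Reads from the coding part could be assigned to either or to none, so the split between these 2 genes is uncertain.

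At day 0 the level of the members differed between classes. The sum of the 10 members at day 0 was 5558 to 9242 CPM in monocyte/macrophage-like cells, 5750 to 8053 in stromal-like cells and 4422 to 5417 in endothelial-like cells. It was 10450 to 14694 CPM in pericyte/smooth muscle-like cells, 10458 to 15650 in Schwann cell-like cells and 23478 to 34264 in the class named from skeletal muscle and satellite cell markers. B lymphocyte-like cells held 2260 to 2526 CPM. The 4 libraries of the muscle and satellite class were above every library of the other classes named here, and the 4 of B lymphocyte-like cells were below every one.

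Among the classes named above, Fos at day 0 followed that order. It was at 6521 to 10637 CPM in the muscle and satellite class, 4400 to 6591 in Schwann cell-like and 2887 to 4444 in pericyte/smooth muscle-like cells, neighbours whose libraries just overlapped. Stromal-like (1385 to 1949 CPM), monocyte/macrophage-like (906 to 1976) and endothelial-like cells (814 to 1002) lay below those 3. The monocyte/macrophage-like libraries overlapped with both others, while the stromal-like ones all lay above the endothelial-like ones. T/NK lymphocyte-like cells (342 to 813 CPM, 3 libraries) and B lymphocyte-like cells (122 to 227) came last, the former only just below endothelial-like cells. In the sum of the 10 members T/NK lymphocyte-like cells were at 5126 to 6384 CPM, which overlapped with endothelial-like cells. Hspa1a was ordered otherwise. The muscle and satellite class was at 4470 to 5983 CPM and the next, monocyte/macrophage-like cells, at 411 to 1016, with stromal-like cells near the end at 192 to 240.

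At day 7 the classes lay closer together. Fos was at 856 to 1835 CPM in pericyte/smooth muscle-like, 864 to 1577 in stromal-like and 1084 to 1623 in monocyte/macrophage-like cells, which overlapped. Schwann cell-like cells held 333 to 688 CPM in 3 libraries, and dendritic cell-like cells, a single cluster led by Ccl22, 198 to 472. The unnamed cells held 1151 to 1737 CPM. Among them was a cluster of 1557 cells led by Cd209a, so the low level need not hold for other dendritic cells. At day 21 Fos was at 5874 to 13923 CPM in the muscle and satellite class (3 libraries), 2725 to 3491 in pericyte/smooth muscle-like and 1542 to 4873 in Schwann cell-like cells, the last 2 overlapping. Endothelial-like cells (1201 to 1459 CPM) lay above stromal-like cells (1003 to 1150), the reverse of day 0. The pericyte/smooth muscle-like libraries of day 21 lay above those of day 3 (806 to 1876 CPM), day 7 and p7N3 (891 to 1655 CPM) without overlap. A cluster led by Myh11 held 79.0% of these cells at day 0, 41.4% at day 21 and 27.7%, 15.7% and 19.1% at day 3, day 7 and with p7N3, and its part in this was not tested. In the muscle and satellite class the only day 7 library with at least 10 cells had Fos at 596 CPM and a sum of 2385 CPM over the members, far below those of days 0 and 21. These classes were not tested. The muscle and satellite class held few cells, 7 to 67 per library at days 0 and 21, and sums under 10 cells were left out. Pericyte/smooth muscle-like cells had 25 to 224 cells per library, so small numbers do not set them apart from the tested lineages.

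Over all 5 groups, the level in each lineage was set against that in monocyte/macrophage-like cells with edgeR (quasi-likelihood test, Benjamini-Hochberg adjustment, library as a block). Stromal-like cells were higher in Egr1 (log2 difference 0.79 ± 0.07 SE, adjusted p = 4.9e-14), Jun (0.53) and Fosb (0.24) and lower in Atf3 (-1.36), Zfp36 (-0.99), Hspa1a (-0.97), Junb (-0.91), Fos (-0.48), Hspa1b (-0.42) and Ier2 (-0.14, which turned to 0.08 with scaling factors computed within each lineage). These 10 of 10 members stand beside 80.9% of all genes that differed between these lineages. Endothelial-like cells were lower in 8 of 10 members, with 35.4% of all genes lower. The lower levels of Zfp36 (-1.26), Fos (-1.19), Atf3 (-1.13), Fosb (-1.02) and Junb (-0.95) kept their direction under the other scaling, whereas those of Hspa1a (-0.44), Egr1 (-0.38) and Hspa1b (-0.27) turned to 0.02, 0.08 and 0.19. The call of Ier2 in stromal-like cells was also lost without any 1 of the 3 day 3 libraries (-0.01 to 0.01), and that of Hspa1b in endothelial-like cells likewise (-0.18 to -0.23). The other scaling moved the median of all genes to 0.29 for stromal-like and 0.50 for endothelial-like cells.

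**Figure D1:**
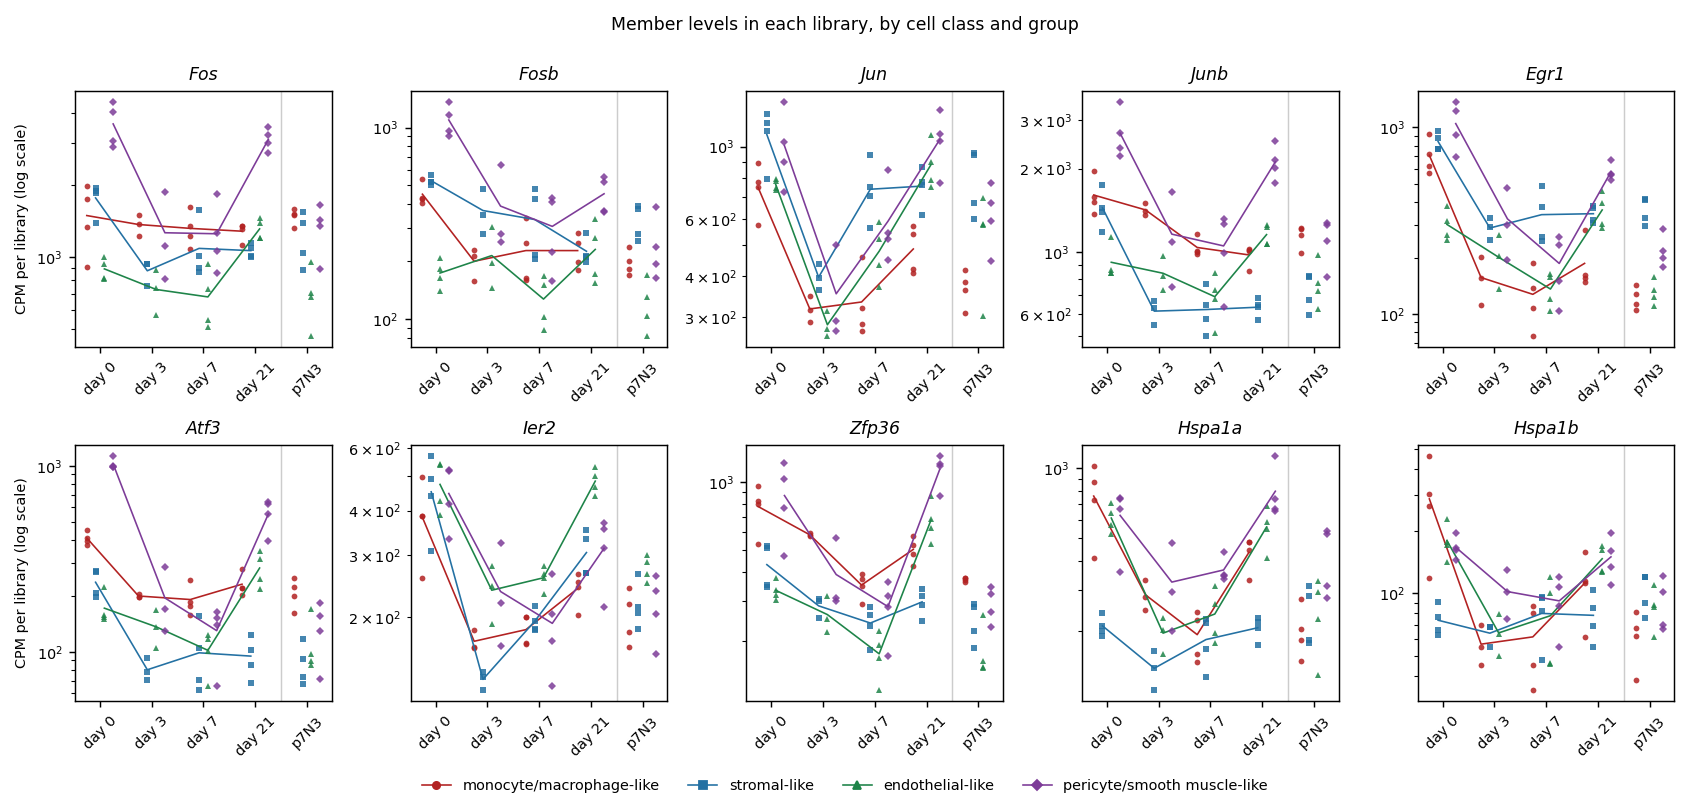
Level of each member (CPM, log axis) in every library, by group, in monocyte/macrophage-like, stromal-like, endothelial-like and pericyte/smooth muscle-like cells, with lines through the group means of days 0 to 21. Egr1 in monocyte/macrophage-like cells lay at 566 to 927 CPM at day 0 and at 76.5 to 281 afterwards, while Fos in these cells overlapped throughout.

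Which members changed after injury was asked first in monocyte/macrophage-like cells. Egr1 fell at each time. Its level in replicates 1 to 4 of day 0 was 720, 927, 624 and 566 CPM, against 111, 202 and 156 at day 3, 138, 76.5, 187 and 107 at day 7, and 148, 281, 162 and 156 at day 21. Every later library was below every day 0 library. The log2 fold change was -2.14 ± 0.20 (SE, adjusted p = 3.1e-06, edgeR) at day 3, -2.28 ± 0.22 (5.7e-07) at day 7 and -1.84 ± 0.19 (1.7e-06) at day 21.

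The AP-1 members of these cells did not move together. Jun was at 892, 781, 751 and 576 CPM at day 0, at 314, 348 and 289 at day 3 and at 319, 285, 458 and 271 at day 7. It fell by 1.21 ± 0.14 and 0.97 ± 0.17 on the log2 scale, without overlap. Fos was at 1976, 1753, 1336 and 906 CPM at day 0, at 1374, 1229 and 1504 at day 3 and at 1344, 1225, 1623 and 1084 at day 7. All these values overlapped, and the log2 fold changes were -0.09 ± 0.19 (adjusted p = 0.72), 0.02 ± 0.19 (0.94) and, at day 21, -0.12 ± 0.17 (0.65). Day 0 replicate 4 had the lowest Fos, and the spread of day 0 limits what could be seen of this gene. Fosb and Atf3 fell at each time, by 1.12 and 1.00 at day 3, 0.77 and 0.89 at day 7 and 0.88 and 0.72 at day 21. Junb did not pass at day 3 (-0.14 ± 0.11, adjusted p = 0.31) and fell at day 7 (-0.42) and day 21 (-0.61).

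The chaperone genes of these cells fell at each time. Hspa1a was at 872, 1016, 731 and 411 CPM at day 0, at 333, 280 and 246 at day 3, at 224, 160, 242 and 147 at day 7 and at 481, 481, 448 and 331 at day 21. The libraries of days 3 and 7 were below all of day 0, and those of day 21 overlapped with replicate 4 of day 0. The log2 fold changes were -1.37 ± 0.22, -1.77 ± 0.22 and -0.70 ± 0.19. Hspa1b fell by 2.28 ± 0.28, 2.00 ± 0.31 and 1.27 ± 0.28. Zfp36 passed narrowly at day 3 (-0.38 ± 0.15, adjusted p = 0.048), and fell by 0.94 at day 7 and 0.53 at day 21, and Ier2 fell by 1.15, 0.87 and 0.58.

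In all, 8, 9 and 9 of 10 members were called lower in monocyte/macrophage-like cells at days 3, 7 and 21 and none higher, where 28.3%, 17.1% and 13.5% of all genes were called lower. The members' median log2 fold change was -1.13, -0.92 and -0.66, and that of all genes was between -0.03 and 0.02. The call of Zfp36 at day 3 was lost when any 1 of the 6 libraries that are day 0 replicates 1 to 3 or day 3 replicates 1 to 3 was left out, at -0.15 to -0.36. Without day 0 replicate 1 the count at day 21 was 5, since Jun (-0.42), Ier2 (-0.39), Zfp36 (-0.48) and Hspa1a (-0.61) no longer passed. Without day 0 replicate 2, Zfp36 (-0.40) and Hspa1a (-0.53) were lost at day 21 and Junb (-0.26) at day 7, the last also without day 0 replicate 1 (-0.34).

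**Figure D2:**
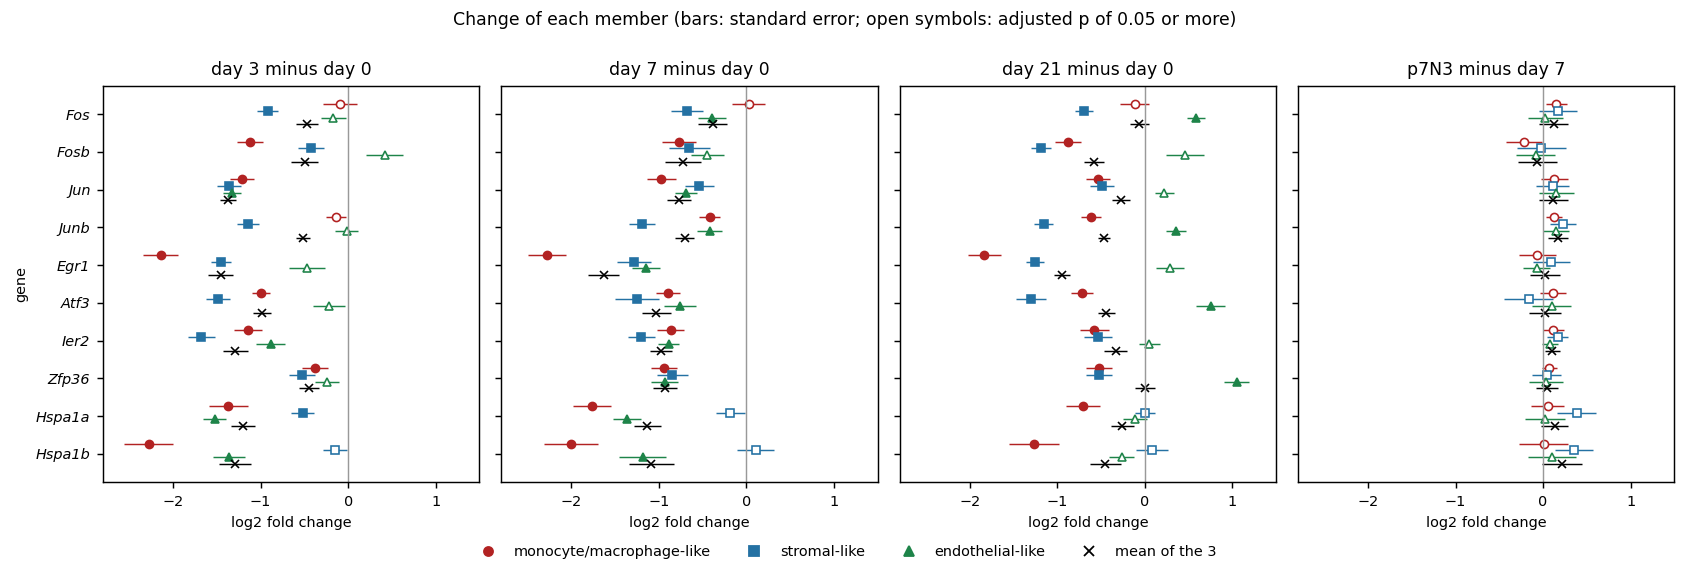
Log2 fold change of each member (bars, standard error) in the 3 lineages and in their mean, with filled symbols for an adjusted p under 0.05; the crosses of the mean are drawn alike for all. Most values of days 3 and 7 lie left of 0, the endothelial-like values of day 21 lie mostly right of it, and those of p7N3 against day 7 lie around it with none called.

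Stromal-like cells differed in which members fell. Fos, which was not called in monocyte/macrophage-like cells, was at 1949, 1884, 1858 and 1385 CPM at day 0 and at 759, 935 and 936 at day 3, and Junb at 1749, 1399, 1449 and 1184 against 549, 628 and 665. Neither overlapped. The log2 fold changes at day 3 were -0.92 ± 0.12 for Fos (adjusted p = 1.4e-05) and -1.14 ± 0.12 for Junb (2.2e-06), and both stayed lower at day 7 (-0.68 and -1.20) and day 21 (-0.70 and -1.15). Atf3 (-1.49, -1.25 and -1.30), Egr1 (-1.45, -1.29 and -1.25) and Ier2 (-1.68, -1.20 and -0.54) fell at each time, as did Jun, Fosb and Zfp36 by 0.42 to 1.36.

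Of the heat shock genes of stromal-like cells, Hspa1a was called at day 3 only. Hspa1a was at 211, 201, 240 and 192 CPM at day 0, at 164, 113 and 140 at day 3, at 168, 128, 216 and 226 at day 7 and at 227, 220, 207 and 174 at day 21. It was below day 0 at day 3 (-0.52 ± 0.13, adjusted p = 0.0031), and overlapped with it at day 7 (-0.18 ± 0.17, 0.38) and day 21 (0.00 ± 0.11, 1). Hspa1b gave -0.15 ± 0.13, 0.10 ± 0.21 and 0.08 ± 0.18, with no call.

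The counts in stromal-like cells were 9, 8 and 8 of 10 lower and none higher, beside 32.9%, 25.6% and 16.4% of all genes called lower. The members' median was -1.03, -0.76 and -0.62, and that of all genes within 0.02 of 0. The day 21 count fell to 5 without day 0 replicate 1 or without day 0 replicate 3, with Jun (-0.41 and -0.44), Ier2 (-0.41 and -0.48) and Zfp36 (-0.44 and -0.41) no longer called. Ier2 was also lost without day 21 replicate 2 (-0.47) or 3 (-0.48). With cell classes from clusters of each group made separately, the counts at days 7 and 21 were both 5, with Fos (-0.20), Fosb (-0.10) and Jun (-0.017) lost at day 7 and Jun (-0.31), Ier2 (-0.36) and Zfp36 (-0.35) at day 21. No share of all genes is given for classes made in this way, here or below. Fosb was lost at day 3 without day 0 replicate 3 or day 3 replicates 1 or 3 (-0.24 to -0.40) and at day 7 without any 1 of day 0 replicates 1 to 4 or day 7 replicates 2 and 4 (-0.48 to -0.65), and Jun at day 7 without day 0 replicate 1 (-0.44) or 3 (-0.46).

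In endothelial-like cells fewer members were called at day 3, and at day 21 some were higher than at day 0. At day 3 only Jun (-1.32 ± 0.10), Hspa1a (-1.52 ± 0.13), Hspa1b (-1.36 ± 0.18) and Ier2 (-0.89 ± 0.16) were lower, 4 of 10 beside 28.1% of all genes called lower. Without day 3 replicate 2, which had the highest Fos (886 CPM), Egr1 (265) and Zfp36 (314) of its group, the count was 7, with Egr1 (-0.73), Fos (-0.34) and Zfp36 (-0.41) added. With clusters of each group made separately it was 9, with Fos at -1.24 and Egr1 at -1.14. At day 7, 9 of 10 were lower, beside 29.4% of all genes, led by Hspa1a (-1.37 ± 0.16), Hspa1b (-1.18 ± 0.27) and Egr1 (-1.15 ± 0.16), and Fosb was at -0.45 ± 0.19 (adjusted p = 0.057). Fos passed narrowly (-0.40, adjusted p = 0.047) and no longer did so without any 1 of day 0 replicates 2 and 3 or day 7 replicates 1, 2 and 4 (-0.26 to -0.42), and Junb likewise without day 0 replicate 3 (-0.32) or day 7 replicates 2 (-0.27) or 4 (-0.39).

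By day 21, 4 of 10 members were higher than at day 0 in endothelial-like cells and none lower, beside 14.4% of all genes called higher and 14.6% lower. With clusters of each group made separately, 1 member was called, Zfp36 (0.49, adjusted p = 0.032), while Fos (0.0075) and Atf3 (0.31) were not and Junb turned to -0.085. Zfp36 was at 335, 318, 380 and 303 CPM at day 0, at 220, 122, 191 and 168 at day 7 and at 871, 624, 531 and 688 at day 21. All day 21 libraries lay above all others. The log2 fold change from day 0 was 1.05 ± 0.14 (adjusted p = 0.00026, edgeR), a 2.07-fold higher level. Fos was at 819, 937, 1002 and 814 CPM at day 0 and at 1459, 1204, 1201 and 1388 at day 21, again without overlap (0.58 ± 0.10, adjusted p = 0.0013). Atf3 rose by 0.75 ± 0.17 (0.0054), with day 0 at 150 to 224 CPM and day 21 at 217 to 350. Junb rose by 0.36 ± 0.11 (0.033), a call that was lost without any 1 of day 0 replicates 1, 2 and 4 or day 21 replicates 1 and 4 (0.30 to 0.33). Fosb (0.45), Egr1 (0.29), Jun (0.22), Ier2 (0.05), Hspa1a (-0.11) and Hspa1b (-0.27) did not pass.

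The average change of the 3 lineages was tested on their mean in each library (limma, log2 CPM). This mean can be lower without a fall in every lineage. At day 3 Fos and Junb were each called lower in 1 lineage only. At day 21 Atf3 and Junb were lower in the mean although called higher in endothelial-like cells. All 10 members were lower at day 3, beside 34.1% of all genes called lower, from Egr1 (-1.46 ± 0.15, adjusted p = 9.3e-06) and Jun (-1.37 ± 0.10) to Zfp36 (-0.45 ± 0.11). At day 7, 9 were lower, beside 27.5% of all genes (30.5% were higher), led by Egr1 (-1.63 ± 0.17), and Fos was at -0.39 ± 0.16 (adjusted p = 0.061). At day 21, 5 were lower, beside 18.1%, namely Egr1 (-0.95 ± 0.09), Fosb (-0.58), Junb (-0.47), Atf3 (-0.44) and Jun (-0.27, adjusted p = 0.047), and the count was 8 without day 0 replicate 4. Jun was lost without any 1 of day 0 replicates 1 to 3 or day 21 replicates 2 to 4 (-0.20 to -0.27). Counted by lineage instead, Jun, Ier2 and Hspa1a were lower in all 3 lineages at day 3, and Atf3, Egr1, Ier2, Jun, Junb and Zfp36 in all 3 at day 7. No member was lower in all 3 at day 21. The share of all genes lower in all 3 lineages is not given, so these counts by lineage have no background. The 3 times share the day 0 libraries, so that a deviation of those moves all of them.

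The difference between lineages was tested in a joint edgeR fit, as the change in stromal-like or endothelial-like cells minus that in monocyte/macrophage-like cells. Between stromal-like and monocyte/macrophage-like cells 6 members differed at day 3, beside 24.4% of all genes. Hspa1b was lowered less in stromal-like cells (1.96 ± 0.32, adjusted p = 9.7e-06), as did Egr1 (0.60) and Fosb (0.55), whereas Junb (-1.13 ± 0.15, 2.9e-07), Fos (-0.99 ± 0.18, 6e-05) and Ier2 (-0.65) fell further. At day 7, 5 differed beside 20.1%, with Hspa1b (2.06 ± 0.31), Hspa1a (1.51 ± 0.27) and Egr1 (0.95) less lowered and Junb (-0.83) and Fos (-0.80) more. At day 21, 3 differed beside 7.85%, Hspa1b (1.24), Fos (-0.66) and Junb (-0.60), each in the direction of days 3 and 7. With clusters of each group made separately Fos was lost at day 7 (-0.22), and Fos (-0.39) and Junb (-0.38) at day 21. Without day 21 replicate 2 the day 21 count was 5, and single calls were lost without day 0 replicate 3 (Fos, -0.57) or 2 (Hspa1b, 0.99). At day 3 Egr1 was lost without day 0 replicate 2 (0.40) or day 3 replicates 1 (0.45) or 3 (0.60), and Fosb without any 1 of day 0 replicates 1 to 3 or day 3 replicates 1 and 2 (0.38 to 0.58).

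Between endothelial-like and monocyte/macrophage-like cells 2 members differed at day 3, beside 10.1% of all genes that differed toward higher values in endothelial-like cells. These were Egr1 (1.45 ± 0.23) and Fosb (1.29 ± 0.22), both less lowered in endothelial-like cells. The share of all genes toward lower values is not given, so a count in either direction has no matching share here. At day 7, 2 of 10 differed, which is near the share of 20.5% of all genes in either direction. They were Egr1 (1.06) and Fos (-0.58). At day 21 the change differed for 8 of 10 toward higher values in endothelial-like cells, beside 4.2% of all genes. Egr1 (2.02 ± 0.21, adjusted p = 2e-08), Zfp36 (1.43 ± 0.19, 1e-06), Atf3 (1.35), Fosb (1.18) and Junb (0.84) led, followed by Jun (0.61), Fos (0.53) and Ier2 (0.49). The chaperone genes Hspa1a (0.44, adjusted p = 0.39) and Hspa1b (0.90, 0.077) were not called. With clusters of each group made separately, Fos (0.16), Junb (0.44) and Ier2 (0.38) were lost at day 21, and at day 3 Fosb was lost (0.34) and Fos (-1.41), Jun (-0.66), Junb (-0.93) and Zfp36 (-0.94) were called lower. Without day 0 replicate 1 the count at day 21 was 5, with Fos (0.33), Jun (0.50) and Ier2 (0.40) lost. Fos was lost at day 21 without any 1 of day 0 replicates 1 and 2 or the 4 day 21 replicates (0.33 to 0.56), and Ier2 without any 1 of day 0 replicates 1 and 2 or day 21 replicates 1, 3 and 4 (0.40 to 0.49). At day 7 the count was 1 without day 0 replicates 3 or 4 or day 7 replicate 2, with Fos (-0.40 to -0.49) lost.

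The variation was also split into parts, with no test. Of the sum of squares of log2 CPM over 19 libraries and 3 lineages, the group shared by the lineages took a median of 38.9% over the members and 13.9% over 9486 genes. The group differing by lineage took 17.3% and 7.56%, and the lineage itself 28.8% and 51.6%. The group took more than the lineage for Jun, Egr1, Ier2, Zfp36, Hspa1a and Hspa1b, and less for Fos, Fosb, Junb and Atf3.

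**Figure D3:**
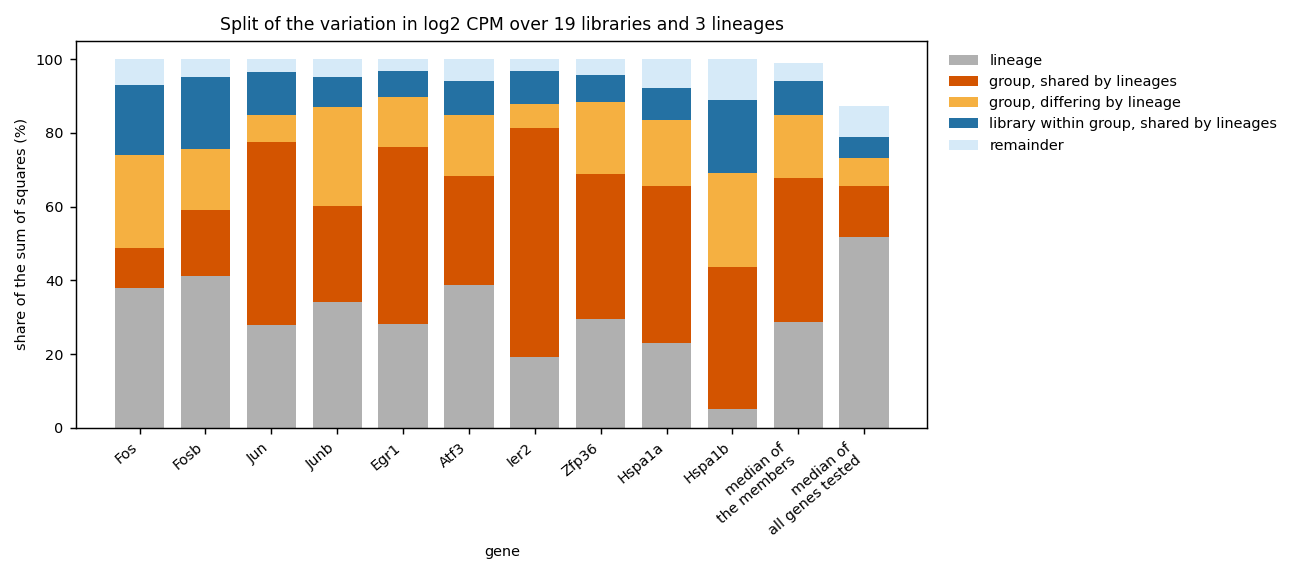
Share of the sum of squares (%) of log2 CPM of each member taken by lineage, by group alike in all lineages, by group differently by lineage, by library within a group alike in all lineages, and the remainder, over 19 libraries and 3 lineages. The right-hand bars are medians, taken for each part on its own, and need not add to 100%; the group's shared part is 38.9% for the members and 13.9% for all genes tested.

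Libraries of a group also shifted as a whole. Within groups, the part shared by the 3 lineages of a library took 66.4% of the members' remaining sum of squares at the median, from 51.8% for Hspa1a to 80.7% for Fosb, against 40.0% for all genes and 33.3% by degrees of freedom alone. The median deviation of the members from their group mean was taken in each library. In day 7 replicate 3 it was 0.38 in monocyte/macrophage-like, 0.36 in stromal-like, 0.31 in endothelial-like and 0.44 in pericyte/smooth muscle-like cells. In day 7 replicate 2 it was -0.23, -0.37, -0.42 and -0.68 in the same order. These 2 libraries of one group stood on opposite sides in every class. Day 0 replicate 4 was low in all 4 classes (-0.44, -0.21, -0.14 and -0.10), p7N3 replicate 4 high (0.14, 0.18, 0.37 and 0.17) and p7N3 replicate 1 low (-0.14, -0.24, -0.35 and -0.42). The 4 classes were on the same side in 10 of 19 libraries. Such a shift has no label, and handling, animal and sequencing cannot be told apart in it.

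**Figure D4:**
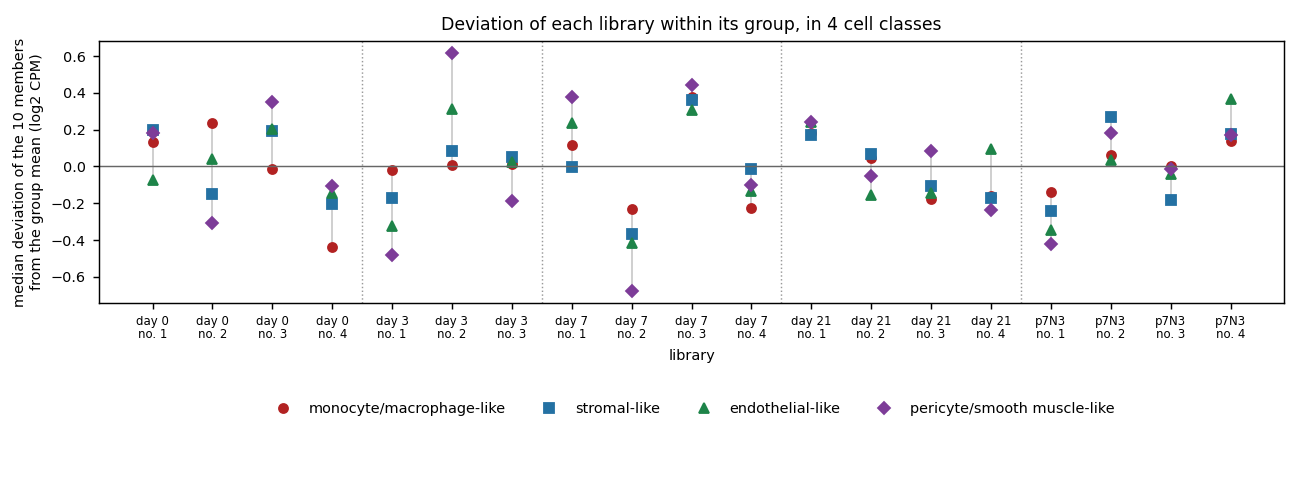
Median deviation of the 10 members from the mean of their group (log2 CPM) in each of 19 libraries, by cell class, with a grey line joining the classes of a library. In day 7 replicate 3 all 4 classes lie above 0 and in day 7 replicate 2 all 4 lie below.

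Libraries with p7N3 did not differ detectably from the day 7 libraries without it. The labels name no harvest day for p7N3 replicate 4. With any 1 library left out, that replicate among them, no member was called either. None of 10 members was called in any of the 3 lineages or in their mean by edgeR and limma, where 0.00914%, 0%, 0% and 0.0323% of all genes were called, and none had an unadjusted p under 0.05. In stromal-like cells Hspa1a gave the largest difference, 0.39 ± 0.22 (adjusted p = 0.62). Egr1 in monocyte/macrophage-like cells was at 138, 76.5, 187 and 107 CPM at day 7 and at 113, 143, 105 and 128 with p7N3. The 95% limits over the members were -0.63 to 0.55 in monocyte/macrophage-like, -0.71 to 0.82 in stromal-like and -0.52 to 0.64 in endothelial-like cells on the log2 scale, so that changes within these limits could not be seen. The change by lineage differed for none of them, beside 0.0789% and 0.00789% of all genes. When cell classes were taken from clusters of each group made separately, 3 members were called lower with p7N3 in stromal-like cells, among them Zfp36 (-0.38, adjusted p = 0.042). The share of all genes called in that fit is not given, so this count has no background. By DESeq2 none was called in any lineage.

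The clusters that made up each lineage changed with time. Of the stromal-like cells, 98.1% lay in a cluster led by Myoc at day 0, 91.7% in a cluster led by Cfd and Prg4 at day 3 and 69.9% in a cluster led by Col14a1 and Pi16 at day 21. A cluster led by Cd209f held 78.1% of the monocyte/macrophage-like cells at day 0 and 1.58%, 7.46% and 31.6% at days 3, 7 and 21. Of the endothelial-like cells, 90.6% lay in a cluster led by Timp4 at day 0, and 84.2% and 78.6% in one led by Fam167b and Plvap at days 3 and 7. At day 21, 47.6% lay in the Timp4 cluster and 43.7% in the Plvap cluster. The comparisons above therefore set different clusters side by side, and were repeated within single clusters after the data had been seen. Single clusters hold fewer cells, such as 63 in the Plvap cluster at day 0. No share of all genes is given for them, so their counts of members have no background.

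Within a cluster fewer members were called in monocyte/macrophage-like cells at days 7 and 21 and in stromal-like cells at day 21, but from fewer cells. The Cd209f cluster held 364 of the 4879 monocyte/macrophage-like cells of day 7. The Myoc cluster held 314 of the 1603 stromal-like cells of day 21. The part of cell number in the lower counts was not tested. In the Cd209f cluster 3 members fell at day 7, Egr1 (-0.94 ± 0.17), Hspa1a (-1.11 ± 0.22) and Hspa1b (-1.12 ± 0.27), in place of the 9 over the whole lineage. At day 21 Egr1 (-1.21), Hspa1b (-0.82) and Junb (-0.49) fell. In the Myoc cluster Egr1 (-0.68), Fosb (-0.94) and Junb (-0.55) fell at day 21, in place of 8 in the lineage. At day 3 the 2 libraries of the Cd209f cluster had Junb at 810 to 876 CPM, against 1445 to 2036 at day 0. Zfp36 was at 379 to 390 against 557 to 966. There only Fos, Hspa1a and Hspa1b overlapped with day 0. In the 2 libraries of the Myoc cluster at day 7, Hspa1a was at 81.0 to 86.6 CPM against 196 to 246 at day 0. Hspa1b, Egr1 and Atf3 were also below day 0, and the other members overlapped. No test is given for these values.

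The endothelial-like lineage was made of clusters that differed at day 0 already. Fos at day 0 was at 1324 to 2954 CPM in the Plvap cluster and at 517 to 742 in the Timp4 cluster, and Zfp36 at 616 to 1541 and 187 to 247, without overlap. In the Timp4 cluster 6 members rose at day 21, among them Zfp36 (1.19 ± 0.14, from 187 to 247 CPM to 382 to 614) and Fos (0.73, from 517 to 742 CPM to 790 to 1253), with Junb (0.78), Egr1 (0.62), Ier2 (0.54) and Jun (0.51). In the Plvap cluster no member rose at day 21. Ier2 (-0.66) and Egr1 (-0.64) fell, and Zfp36 was at 799 to 1273 CPM (-0.07). In this cluster 9 members fell at day 3 and 8 at day 7, where Zfp36 was at 126 to 235 CPM and Egr1 went from 625 to 816 CPM at day 0 to 83.3 to 158. Over the whole lineage 4 members were called at day 3. Hspa1a was not higher in the Plvap cluster at day 0, at 178 to 456 CPM against 580 to 760 in the Timp4 cluster.

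**Figure D5:**
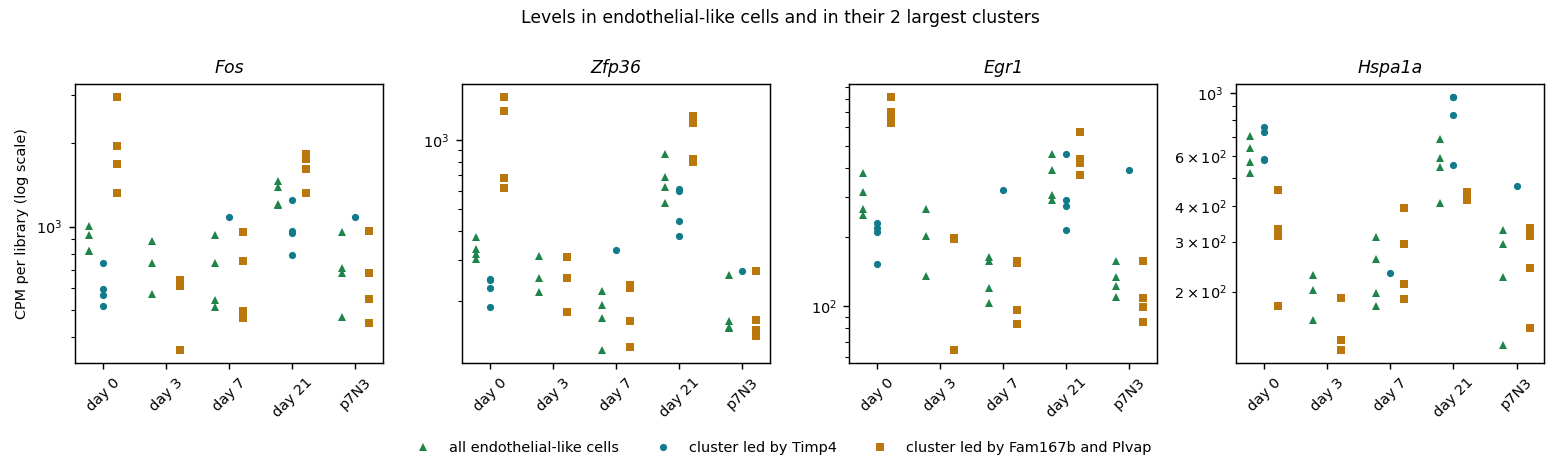
Level (CPM, log axis) of Fos, Zfp36, Egr1 and Hspa1a in all endothelial-like cells and in the clusters led by Timp4 and by Fam167b and Plvap, per library with at least 10 cells. At day 0 the Plvap cluster lies above the Timp4 cluster in Fos, Zfp36 and Egr1 and below it in Hspa1a; at day 7 the Plvap cluster is low in Fos, Zfp36 and Egr1.

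Shares of cells with a transcript were read after each cell had been thinned to 1500 UMIs, as depth differed. Egr1 was found in 37.3% ± 7.3 (SD, n = 4) of monocyte/macrophage-like cells at day 0 and in 15.5% ± 3.5 (n = 3), 13.4% ± 2.8 (n = 4) and 20.2% ± 6.9 (n = 4) at days 3, 7 and 21. Without thinning the shares were 53.1%, 48.5%, 30.5% and 50.3%, at median depths of 3737, 9721.5, 5271 and 7572 UMIs per cell. The thinned shares went with the CPM, and so did those of Hspa1a (48.7%, 21.5%, 16.9% and 34.9%). Erythrocyte-like cells, read as a rough background, gave 3.39% ± 4.8 for Egr1 and 6.46% ± 4.3 for Hspa1a at day 3 (SD, n = 2, median 11271.5 UMIs per cell). Without thinning they gave 31.4% and 22.8%. Thinning such deep cells also lowers the share of stray transcripts, so the thinned values may understate the background. Whether these cells transcribe the members was not tested. That class gives no background for day 0, where Egr1 was at 588 CPM in barcodes of 1 to 50 UMIs and 725 CPM in the cells of replicate 1, and Hspa1a at 1084 and 720 CPM. How much of the day 0 shares is free RNA was not tested.

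The share with Fos is read with more care, as it was 13.9% ± 0.51 in erythrocyte-like cells at day 3 (n = 2) and 43.8% in the only library with at least 10 such cells at day 7 (16 cells). Without thinning these shares were 60.1% and 75%. In monocyte/macrophage-like cells it was 64.1%, 69.2%, 68.2% and 65.2% at days 0, 3, 7 and 21, within 1 SD of day 0 (15). In stromal-like cells it was 61.6% at day 0 and 59.1 to 61.2% later although the CPM fell, and in endothelial-like cells 34.5% at day 0 and 54.7% at day 3, where the CPM was not called. No order was read from these shares. Zfp36 in endothelial-like cells was in 24.0% ± 4.9 of cells at day 0, 20.5% ± 6.0 at day 7 and 43.4% ± 4.5 at day 21 (SD, n = 4 each), which went with its CPM. The mean number of members found per monocyte/macrophage-like cell was 4.56 at day 0 and 3.44, 3.06 and 3.49 later. In stromal-like cells it was 3.78 at day 0 and 3.15 to 3.21 later. In endothelial-like cells it was 2.92 ± 0.26 (SD) at day 0, 3.24 ± 0.79 at day 3, 2.62 at day 7 and 3.85 at day 21. In the muscle and satellite class it was 6.47 at day 0, 7.12 at day 21 and 1.91 in the only library at day 7. Cells without any member were 6.63%, 7.04% and 11.1% of monocyte/macrophage-like, stromal-like and endothelial-like cells at day 0. At day 3 these shares were lower (1.88%, 5.13% and 8.4%) and at day 7 higher (7.34%, 10.2% and 12.5%).

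Other genes of the same programmes were read from lists. In the mean of the 3 lineages at day 7, where 27.5% of all genes were lower and 30.5% higher, 6 of 7 tested AP-1 partners fell (median -0.82), led by Mafk (-1.63) and Jdp2 (-1.17), which encode partners without an activation domain. Of the zinc finger and nuclear receptor genes 6 of 7 fell (median -0.76), led by Klf4 (-2.11) and Klf2 (-1.41). Of 21 feedback and other early genes 12 fell and 2 rose, Tnfaip3 (0.90), which restrains NF-κB signalling, and Dusp5 (0.76), a phosphatase that acts on ERK. Ppp1r15a (-1.02) and Btg2 (-0.96) were lowest. At day 3 Tnfaip3 (1.84) and Dusp5 (1.87) had risen further. Of 15 heat shock genes 9 fell and 1 rose at day 7. The small heat shock proteins Hspb1 (-2.12) and Cryab (-1.94) fell most, and Hspe1 (0.42), the mitochondrial co-chaperonin, rose.

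Another stress response and common reference genes moved as well. Of 7 endoplasmic reticulum stress genes 4 fell at day 7 (median -0.40), among them Herpud1 (-1.26) and Dnajb9 (-1.11). Of 9 housekeeping genes 6 rose and none fell (median 0.42), led by the glycolytic enzyme gene Gapdh (1.73). In endothelial-like cells at day 21, where 14.4% of all genes were higher and 14.6% lower, 9 of 21 feedback genes rose and none fell, with Tnfaip3 (2.14) and Ier3 (1.51) highest, while 7 of 15 heat shock genes fell and none rose. The median of all genes tested was between -0.01 and 0.02 in these comparisons.

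Markers of other cells moved with the comparison to day 0. Erythrocyte markers (5 of 5 detected) summed to 8869 to 15581 CPM in endothelial-like cells at day 0 and 951 to 5098 at day 21, and to 637 to 19251 CPM in monocyte/macrophage-like cells at day 0. Skeletal muscle and satellite cell markers, of the class with the highest member levels, summed to 83.0 to 189 CPM in monocyte/macrophage-like cells at day 0 (6 of 6 detected) and 1.35 to 10.7 at day 3 (4 of 6). Granulocyte markers (6 of 6) at day 3 summed to 1773 to 2675 CPM in monocyte/macrophage-like, 1409 to 2382 in stromal-like and 1204 to 2040 in endothelial-like cells. Their part in the member levels was not tested.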

How the data were processed

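Cells from 19 droplet libraries (10x Genomics, 3′ ends, v2 chemistry) were analysed. The authors aligned the reads with Cell Ranger to mm10 and deposited UMI counts per gene and barcode, without normalization. The labels name GRCh38 as build, but the gene identifiers are those of mouse. The day 0 libraries are the shallowest, and their sums are the least precise.

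Cells were kept at 500 genes or above and at a mitochondrial share of up to 25%. Clusters of these 39541 cells came from leidenalg 0.10.2 through scanpy 1.11.5 (Python 3.11.15; 2000 variable genes, 30 principal components, 20 neighbours, resolution 0.8), with 83 members and list genes left out of the variable genes. A cluster was named from at least 3 detected markers of a fixed list. Doublets were kept, and the top 3.9% of Scrublet scores were removed as an alternative. UMIs were summed per library and class with at least 10 cells and given as CPM. Shares of cells were read after thinning to 1500 UMIs, which left out shallower cells, among them 116 of 1031 endothelial-like cells of day 0.

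Within each lineage, groups were tested on these sums by the quasi-likelihood method of edgeR 4.0.16 (TMM factors, R 4.3.3). The mean over 3 lineages of log2 CPM (prior count 2) was compared with limma 3.58.1. The difference in change between lineages was tested in a joint edgeR fit with the library as a block. Its TMM factors were computed within each lineage, because on simulated counts of day 7 and day 0 a single set over the lineages shifted the unchanged genes by -0.25 to -0.27 and gave 14 false calls among 51. With factors within lineages, 38.5% of 200 genes changed 2-fold in stromal-like cells were recovered among 12199, with 4 false calls among 81. The within-lineage fits recovered 54.5 to 99% of 200 genes changed 2-fold in 12 simulated comparisons of 5798 to 13019 genes. All simulated counts took the real library sizes but the same fixed spread for every gene, and were drawn independently for each lineage. For the difference between lineages, only genes with higher mean counts were changed. The real libraries also hold shifts shared by their lineages, so these rates need not hold for them. A gene was called at an adjusted p under 0.05 (Benjamini-Hochberg) over all genes tested. The p-values measure the spread between libraries. DESeq2 1.42.0, RLE factors, no filter on low counts, other sets of samples, cells and clusters, and leaving out each library were the alternatives.

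The members and lists were chosen with earlier results of these data known, and the lists serve as description only. All 10 members are named in every comparison. Of the 5 genes outside the lists with the deviations most like those of the members, 1 is not reported here. Of each list, up to 2 called genes with the largest change in each direction are named, and the examples in the text are a part of these. Single clusters within a lineage were chosen after seeing the data. Coordinates are those of GENCODE M21 and promoter sequences those of RefSeq, for 8 of 10 members (not Egr1 and Ier2).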

Additional observations from a re-analysis of the deposited data

Results flagged for a closer look

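Single libraries stood apart in 11 of 160 groups of 4 libraries by Dixon's test. Chance alone gives about 1 in 20 of all groups tested, and 11 of 160 is near that share. The groups are also not independent, since the members of a library shifted together. The 11 are listed as description only. In endothelial-like cells these were Atf3 in p7N3 replicate 4 (170 CPM) and day 0 replicate 3 (224 CPM), Junb in day 0 replicate 3 (1135 CPM) and Zfp36 in p7N3 replicate 4 (260 CPM), each the highest of its group. In monocyte/macrophage-like cells they were Egr1 in day 21 replicate 2 (281 CPM) and Junb in day 7 replicate 3 (1162 CPM), both the highest, and Junb in day 21 replicate 4 (855 CPM), the lowest. In stromal-like cells Fos in day 0 replicate 4 (1385 CPM) was the lowest and Fosb in day 21 replicate 1 (282 CPM) the highest. In pericyte/smooth muscle-like cells Atf3 in day 0 replicate 1 (1124 CPM) and Hspa1a in day 7 replicate 1 (435 CPM) were the highest.

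The change from day 0 differed between lineages in 26 of 60 tests of a difference (edgeR, adjusted p under 0.05 over all genes). Of all genes, 24.4%, 20.1% and 7.85% differed for stromal-like cells at days 3, 7 and 21, in either direction. For endothelial-like cells 20.5% differed in either direction at day 7. Toward higher values, 10.1% differed at day 3 and 4.2% at day 21. For the change in stromal-like minus that in monocyte/macrophage-like cells (log2), these were Fos (-0.99), Fosb (0.55), Junb (-1.13), Egr1 (0.60), Ier2 (-0.65) and Hspa1b (1.96) at day 3. At day 7 they were Fos (-0.80), Junb (-0.83), Egr1 (0.95), Hspa1a (1.51) and Hspa1b (2.06), and at day 21 Fos (-0.66), Junb (-0.60) and Hspa1b (1.24). For endothelial-like minus monocyte/macrophage-like cells they were Fosb (1.29) and Egr1 (1.45) at day 3 and Fos (-0.58) and Egr1 (1.06) at day 7. At day 21 they were Fos (0.53), Fosb (1.18), Jun (0.61), Junb (0.84), Egr1 (2.02), Atf3 (1.35), Ier2 (0.49) and Zfp36 (1.43). The lineages hold different clusters at different times, as given above, and the part of that in these differences was not tested.

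In day 0 replicate 1, barcodes with 1 to 50 UMIs, which no comparison used, held the sum of the members near the level of its cells. This library came with 373619 barcodes that hold UMIs, and the others with 614 to 3786. The level in such barcodes can therefore not be compared between groups. The 333068 barcodes of 1 to 50 UMIs in this library held 1557914 UMIs. The sum of the 10 members in them was 8493 CPM, against 8315 CPM in the cells of that library. Fos was at 1888 CPM in them and 2003 CPM in the cells. Fos as a percentage of Junb was 99.2% in these barcodes, 96.9 to 125% in the 4 large classes of that library and 10.0 to 19.4% in the B lymphocyte-like cells of the 4 day 0 libraries. The part of such RNA in the CPM of each class was not tested.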

How the results depend on the processing

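Of 4249 values of single members recomputed under the alternatives, 3949 kept their side of the threshold, of which 224 changed sign while not called. A further 160 lost a call, 121 gained one and 19 changed direction with a call in at least 1 of the fits. With cell classes from clusters of each group made separately, the members called were 9 in endothelial-like cells at day 3, 5 in stromal-like cells at days 7 and 21, 1 in endothelial-like cells at day 21 and 3 in stromal-like cells with p7N3, and the difference between lineages was called for 5 (endothelial-like, day 3), 4 (endothelial-like, day 7) and 1 (stromal-like, p7N3). Junb in endothelial-like cells at day 21 (-0.085), Zfp36 in stromal-like cells with p7N3 (-0.38) and the level of Ier2 in stromal-like cells (0.087) turned. Within single clusters, an alternative chosen after seeing the data, the counts were 3 in the Cd209f cluster at days 7 and 21, 3 in the Myoc cluster at day 21, and 9 and 2 in the Plvap cluster at days 3 and 21. No share of all genes stands beside these counts or those from clusters of each group made separately. Fosb turned in the Cd209f cluster at day 7 (0.015), Jun (0.088) and Zfp36 (0.10) in the Myoc cluster at day 21, Fosb in the Plvap cluster at day 3 (-1.34), and Fos (-0.29), Junb (-0.51), Egr1 (-0.64), Atf3 (-0.35), Ier2 (-0.66) and Zfp36 (-0.071) there at day 21. The cause was not tested.

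For the difference between lineages, 1 set of TMM factors over the 3 lineages gave 4 members for endothelial-like cells at day 3, and for stromal-like cells at day 3 a split of 1 higher and 6 lower in place of 3 and 3. Without a filter on low counts 5 (endothelial-like, day 3) and 6 (stromal-like, day 21) were called, without the library block 1 (endothelial-like, day 7), 1 (stromal-like, day 21) and 5 (endothelial-like, day 21), and with only the 2 groups in the fit 4 (endothelial-like, day 3). For the level, factors within each lineage turned Ier2 in stromal-like cells (0.082) and Jun (0.36), Egr1 (0.081), Hspa1a (0.021) and Hspa1b (0.19) in endothelial-like cells, and the level of Ier2, with single libraries left out, ranged from -0.16 to 0.014 and turned without day 3 replicate 2. The cause was not tested. Same-numbered libraries did not deviate together (15 pairs, r from -0.125 to 0.145), so the numbers were not used as pairs. Whether the numbers mark anything else was not tested. With a replicate block, the mean of the 3 lineages at day 21 had 8 members called, and no call was lost.

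With each library left out in turn, the counts at days 3, 7 and 21 were 7 to 8, 8 to 9 and 5 to 9 in monocyte/macrophage-like cells, 8 to 9, 6 to 8 and 5 to 8 in stromal-like cells, 4 to 7, 7 to 10 and 3 to 6 in endothelial-like cells, and 10, 9 to 10 and 4 to 8 in the mean. The differences between lineages gave 4 to 7, 5 to 6 and 2 to 5 for stromal-like and 2 to 3, 1 to 2 and 5 to 9 for endothelial-like cells, and the levels 9 to 10 and 8 to 9. With p7N3 every count was 0.

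Of simulated 2-fold differences between lineages 38.5% were found at the depths of these libraries. The simulated counts had a fixed spread and no shift shared by the lineages of a library, so the rate for the real counts is not known. Day 0 is the shallowest group and the reference for all times.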

Other observations

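The 4 genes whose deviations from the mean of their group and lineage were most like those of the members' mean were Ccnl1 (r = 0.761), Ifrd1 (0.733), Topors (0.705) and Nfkbiz (0.700), among 3787 genes outside the lists, over 57 points from 19 libraries. The median over those genes was -0.022. The points of a library share its handling and depth, so no p is given. Each member against the mean of the others gave 0.513 (Hspa1a) to 0.828 (Jun). By list, the median was 0.623 for zinc finger and nuclear receptor genes, 0.492 for feedback and other early genes, 0.321 for AP-1 partners, 0.268 for heat shock genes, 0.092 for endoplasmic reticulum stress genes and -0.304 for housekeeping genes.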
